A study of Glycine max with 108 samples.

Results

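The combination of salinity and acidity in soybean leaves was set against each of its parts, to ask which genes went further under the pair than under either stress alone and which changed in the opposite direction. The comparison used 11 of the 108 samples of the series, chosen by their labels: leaves of plants given both stresses (n = 3), salinity alone (n = 3), acidity alone (n = 3) and no stress (n = 2). All plants were Glycine max of cultivar Magellan, 31 days old, from seeds coated with a Bradyrhizobium japonicum inoculum. Each library pooled the leaves of 5 to 7 plants, so a library stands for a pool and not for a plant. Salinity was 15 mM, given once at the start, and acidity alone is labelled as pH 4, with no pH given in the labels of the combination. Plants of these 4 groups were watered to 100% of the water available for transpiration. Control column 3 was the mean of the other control columns and was not counted as a library.

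Salt in the root zone lowers the water potential of the soil solution and loads tissues with sodium and chloride. A low pH raises the proton concentration around the roots, disturbs membrane transport and limits the uptake of several nutrients, and both conditions are known to impair the symbiosis of legumes with rhizobia. Saline and acid conditions can occur together in cultivated soils. Transcript levels were deposited as FPKM, a number of mapped fragments scaled by transcript length and library size. Differences below are on the log2(FPKM + 1) scale, where a value of 1 is called 2-fold, and this scale understates the change of genes with low levels. A gene was tested if its mean over all leaf libraries reached 1 FPKM, which 28678 of 57147 listed features did. It was called at an adjusted p under 0.05, from limma with Benjamini-Hochberg adjustment over all tested features.

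The libraries of the pair stood apart from those of its parts and of the control. Across genes, Pearson's r of log2 levels was 0.962 to 0.969 among the libraries of the pair and 0.968 between the control libraries. Between the pair and the control it was 0.768 to 0.786, against 0.923 to 0.930 between salinity and the control and 0.947 to 0.955 between acidity and the control. The pair lay nearer to salinity (r from 0.856 to 0.872) than to acidity (r from 0.781 to 0.813). Of all other leaf treatments it lay nearest to the 4-stress combination, in which water deficit and low phosphate came on top of the pair, with a median r of 0.942. No leaf treatment lay further from the control than the pair, whose median r to the control was 0.781. That median was 0.885 with water deficit added to the pair and 0.905 with low phosphate added. It was 0.862 for the 4-stress combination and 0.829 when cadmium was also added. These correlations are descriptions over genes, which are not independent. Why the pair lay further from the control than combinations that contained it was not tested. The labels do not say whether its plants were grown or harvested apart. The relative depth of the libraries, read from the smallest values of rarely detected genes, was 0.865 to 0.959 for the pair, 0.940 to 1.021 for salinity, 0.908 to 1.102 for acidity and 1.149 to 1.223 for the control. Depth therefore moved with the group between the pair and the control, and its part in the results was not tested. The labels give no sequencing batch, so no value within batches can be given. The leaf, nodule, seed and flower marker genes could not be looked up, because no source at hand pairs the gene IDs with names. The tissue label was for that reason not checked against markers.

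Salinity plus acidity set leaf transcript levels apart from both single-stress states. Against salinity alone, 18729 genes were called, 11632 higher and 7097 lower in the pair, which is 65.3% of those tested. Against acidity alone, 20373 were called, 11655 higher and 8718 lower, or 71%. At least 2-fold differences were found for 2956 higher and 1230 lower genes against salinity and for 3913 higher and 2273 lower genes against acidity. The root mean square difference over all tested genes was 0.80 against salinity and 0.98 against acidity, on the log2(FPKM + 1) scale. Both comparisons share the libraries of the pair, so they are not independent of each other. The pair differed from control in 20095 genes (70.1%). For scale, salinity alone differed from control in 11903 genes (41.5%), 4993 higher and 6910 lower, and acidity alone in 3499 (12.2%), 1861 higher and 1638 lower. How the libraries were scaled moved the balance of directions. Scaling by median ratio left 9159 genes above and 8682 below salinity, 2329 and 1780 of them at least 2-fold. The same scaling gave 6062 higher and 5256 lower genes for salinity alone and 2194 higher and 1044 lower for acidity alone. The median of all tested genes was 0.15 above salinity and 0.11 above acidity as deposited, and 0.03 and 0.02 above them after scaling. Small changes are best read relative to that shift.

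Adding the 2 single effects did not give the effect of the pair. On the log2 scale, 14875 genes (51.9%) departed from the sum, 9707 above it and 5168 below it, and 3474 and 1322 of these departures reached 2-fold. After scaling to the median ratio, 7285 were above and 7008 below the sum, and 2515 and 2100 of these departures reached 2-fold. The median departure of all tested genes was 0.18 as deposited and 0.01 after scaling.

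Genes beyond both single stresses made up a large share of those tested. Higher in the pair than in salinity, in acidity and in control were 9109 genes (31.8%), and lower than in all of them were 6156 (21.5%). Among these, 7123 higher and 3906 lower genes (24.8% and 13.6% of all tested) also lay beyond the sum of the single effects. With the libraries scaled to the median ratio, 7588 genes were higher and 7314 lower than both parts and control, and 5709 and 5185 of them lay beyond the sum. At least 2-fold beyond each single stress were 2751 higher genes (9.59%) and 979 lower genes (3.41%). After scaling there were 2191 and 1419. All 979 lower genes and 2191 of the 2751 higher genes were again at least 2-fold. No difference from either single stress changed sign in these genes. Scaling divided the libraries of the pair by 1.08 to 1.13 and those of its parts by 0.993 to 1.03. It thus lowered the pair relative to its parts, so the result for the 979 was given in advance. Most genes of the deposited 2-fold lists did not overlap between groups. The lowest library of the pair lay above every salinity, acidity and control library for 2738 of the 2751, and the highest lay below every one for 971 of the 979. Over all tested genes the same held for 32.7% and 21.2%, and since the lists were defined by these comparisons nothing further is read from the counts.

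**Figure D1:**
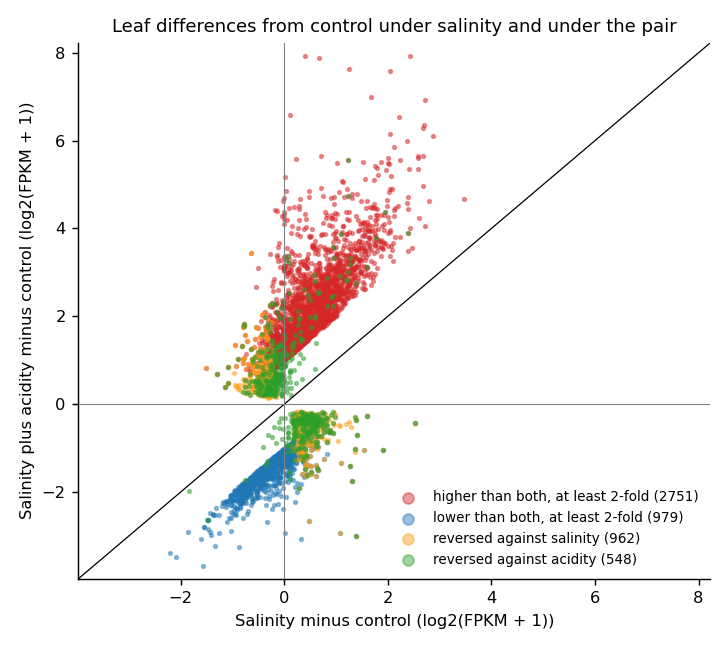
Each point is a gene, with its difference from control under salinity on the x axis and under salinity plus acidity on the y axis, both in log2(FPKM + 1), coloured by list (a gene can be in more than 1 list, and later colours cover earlier ones). The 2751 higher genes lie at least 1 above the diagonal of equal differences, the 979 lower genes at least 1 below it, and both axes share the control libraries.

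The 2751 genes raised beyond both parts were little changed by acidity alone and modestly raised by salinity alone. Their median difference from control was 0.35 under salinity, -0.02 under acidity and 1.86 under the pair, against -0.07, -0.06 and 0.06 over all tested genes. The median excess was 1.46 over salinity and 1.87 over acidity, and the median departure from the sum was 1.52. The smaller of the excesses over the single stresses reached 4-fold for 572 genes, 8-fold for 135 and 16-fold for 31. In levels, the median gene of the list stood at 3.45 FPKM in control, 5.14 under salinity, 3.49 under acidity and 18.1 under the pair. In pooled leaf tissue, more cells of a type and more RNA per cell cannot be told apart behind such levels. Some of these genes were close to silent in the other groups. Of the 2751, 563 had a mean under 1 FPKM in control, and 262 had one under 1 FPKM in control, salinity and acidity alike. Of those 262, 57 reached 10 FPKM in the pair. At the other end, 216 genes reached 100 FPKM in the pair, against 14 in control. The filter on low values favoured few of them, because 2679 of the 2751 reached a mean of 1 FPKM in the other leaf libraries without those of the pair.

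The 979 genes lowered beyond both parts started from higher levels and moved less. Their median difference from control was -0.23 under salinity, -0.08 under acidity and -1.48 under the pair, and the median departure from the sum was -1.17. The median gene of the list stood at 16.8 FPKM in control, 13.4 under salinity, 15.7 under acidity and 5.00 under the pair. Only 20 of them were at least 4-fold below both single stresses, 3 were 8-fold below and 0 were 16-fold below, where the rises had 572, 135 and 31. In the pair, 95 of the 979 had a mean under 1 FPKM, and 48 still reached 100 FPKM, against 98 in control. All 979 reached a mean of 1 FPKM without the libraries of the pair. The counts of 2-fold genes in both lists depended on the constant added before the logarithm. With 5 in place of 1 there were 1465 raised and 260 lowered genes, and with 0.1 there were 3371 raised and 1871 lowered genes. On the log2(FPKM + 1) scale a fall is bounded by the level it starts from and a rise is not, which limits the comparison of their sizes.

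By the smaller of the differences from the single stresses, the largest rises were GLYMA_07G243700 and GLYMA_07G243500, a pair of IDs with near numbers on chromosome 7. The sources at hand annotate neither, so no name or role is given. In control GLYMA_07G243700 was listed at 0 and 0.297 FPKM, with 0.231, 0.263 and 1.21 under salinity and 0 in all 3 libraries of acidity. Under salinity plus acidity it stood at 254, 331 and 249 FPKM. Thus it was close to absent in control and under each single stress and abundant under the pair. That the groups did not overlap was a condition for naming it, and its rank came from the differences that follow. The difference was 7.52 from salinity (SE 0.22, limma adjusted p = 5.36e-28) and 8.11 from acidity (SE 0.22, limma adjusted p = 8.05e-30). GLYMA_07G243500 ran in parallel, at 0 and 0.520 FPKM in control, 1.53, 0.523 and 0.999 under salinity, 0.146, 0.0808 and 0.209 under acidity and 283, 332 and 258 under the pair. It lay 7.20 above salinity and 7.99 above acidity (SE 0.22 for both, limma adjusted p = 7.96e-27 and 7.12e-29). Because the values of these IDs were alike across the leaf groups and the counting method is not given in the sources used here, reads shared between similar sequences cannot be told apart from separate responses.

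Both IDs also had higher levels in some combinations that lacked salinity or acidity. For GLYMA_07G243700 the libraries stood at 33.5, 32.0 and 35.0 FPKM under acidity with water deficit and at 37.1, 40.0 and 34.4 under salinity with low phosphate, against 0 in all libraries of water deficit alone and of low phosphate alone. A further stress on top of the pair lowered it. It stood at 15.8, 12.1 and 16.2 FPKM with water deficit added (difference -4.15, SE 0.22, limma adjusted p = 5.58e-19) and at 11.5, 11.4 and 10.2 with low phosphate added (difference -4.52, SE 0.22, limma adjusted p = 1.02e-20). With both added it stood at 80.3, 96.0 and 103 FPKM, between those triples and the pair. No library of a combination reached the level of the pair, the nearest being 160, 156 and 168 FPKM in the 5-stress combination that also held cadmium.

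By the same ranking, the largest falls were GLYMA_14G140900 and GLYMA_09G188800. As with the rises, non-overlap was a condition for naming, and p-values of the ranking differences add no support. GLYMA_14G140900 stood at 46.8 and 54.7 FPKM in control, 129, 134 and 135 under salinity and 75.8, 74.7 and 59.4 under acidity, but at 5.00, 6.87 and 4.75 under the pair. Each single stress thus raised it, by 1.38 (SE 0.11, limma adjusted p = 5.34e-14) for salinity and by 0.45 (SE 0.11, limma adjusted p = 0.00266) for acidity. The pair lay 2.99 below control on the same scale (difference -2.99, SE 0.11, limma adjusted p = 4.46e-26), a turn against both of its parts. GLYMA_09G188800 had a like profile, with 17.9 and 19.6 FPKM in control, 38.3, 39.6 and 43.4 under salinity, 31.0, 20.8 and 19.9 under acidity and 1.48, 1.20 and 2.18 under the pair. It lay 4.00 below salinity (difference -4.00, SE 0.17, limma adjusted p = 8.91e-23) and its difference from acidity was -3.24 (SE 0.17, limma adjusted p = 4.00e-20).

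**Figure D2:**
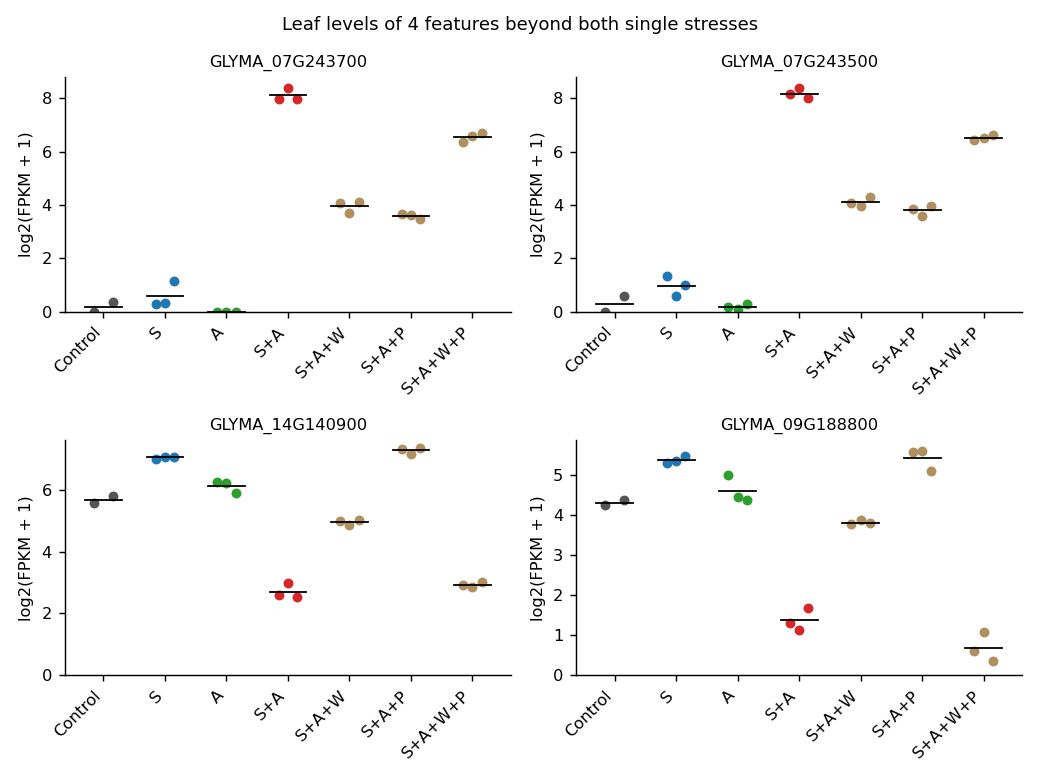
Level of 4 genes in each leaf library, on the y axis in log2(FPKM + 1), in control, salinity (S), acidity (A), the pair (S+A) and the pair with water deficit (W), low phosphate (P) or both. Points are libraries and lines are group means. The 2 rising genes are highest in S+A and intermediate with a further stress, and the 2 falling genes are low in S+A and S+A+W+P and high again in S+A+P.

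With low phosphate alone on top of the pair, both genes stood above their control libraries. GLYMA_14G140900 stood at 161, 144 and 165 FPKM (difference from the pair 4.60, SE 0.10, limma adjusted p = 3.62e-33) and GLYMA_09G188800 at 46.3, 47.4 and 33.0 (difference 4.05, SE 0.17, limma adjusted p = 1.33e-22). Under water deficit alone, below all control libraries too, GLYMA_14G140900 stood at 12.4, 11.0 and 12.5 FPKM and GLYMA_09G188800 at 0.827, 0.541 and 0.429. Yet acidity with water deficit gave 338, 347 and 336 FPKM for GLYMA_14G140900 and 83.4, 85.9 and 104 for GLYMA_09G188800. Acidity with low phosphate gave 312, 338 and 364 FPKM and 128, 136 and 132 FPKM for the same genes. With acidity, water deficit and low phosphate together the levels were low, at 8.10, 9.40 and 8.42 FPKM and at 0.372, 0.460 and 0.265 FPKM. They were low in the 4-stress combination too, at 6.51, 6.22 and 7.05 FPKM and at 0.522, 1.11 and 0.286 FPKM, so neither acidity nor low phosphate went with 1 level of these genes across its combinations.

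Reversal, a call in one direction under a single stress and in the other under the pair, was rarer than excess. Against salinity 962 genes (3.35%) reversed, 474 from higher to lower than control (1.65%) and 488 from lower to higher (1.7%). Against acidity 548 genes (1.91%) reversed, 234 from higher to lower (0.816%) and 314 from lower to higher (1.09%). Opposite to both single stresses were 104 genes that the pair raised (0.363%) and 184 that it lowered (0.642%). These splits by direction rested on the scaling. After that scaling 703 genes turned from higher to lower and 200 from lower to higher against salinity, and 339 and 177 against acidity. Opposite to both single stresses it left 34 genes that the pair raised and 272 that it lowered. The counts also rested on the 2 control libraries that they all share. Without control replicate 1 there were 495 reversals against salinity and 175 against acidity, and without control replicate 2 there were 545 and 294.

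Reversed genes moved modestly in both directions. The 474 genes that turned downward had a median difference from control of 0.40 under salinity and -0.50 under the pair, and the 488 that turned upward had -0.36 and 0.45. Against acidity the corresponding medians were 0.36 and -0.50 for the 234 genes that turned downward and -0.41 and 0.73 for the 314 that turned upward. Genes that turned downward were the more abundant, with a median control level of 36.4 FPKM against 10.6 FPKM for those that turned upward against salinity, and 29.7 against 10.7 FPKM for acidity. Excess over the single stress reached further than the change of sign in a few, as 31 of the 314 genes that turned upward against acidity differed at least 4-fold from both parts.

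GLYMA_14G140900, described above, headed the genes that salinity raised and the pair lowered. GLYMA_04G178500 headed those that salinity lowered and the pair raised, at 5.13 and 8.71 FPKM in control, 2.90, 2.31 and 4.06 under salinity and 14.3, 14.1 and 11.0 under the pair. Its acidity libraries stood at 8.97, 8.84 and 1.88 FPKM, with the last apart from the others. The reversal was weakly held. The difference from control was -0.94 for salinity (SE 0.33, limma adjusted p = 0.0192) and 0.87 for the pair (SE 0.33, limma adjusted p = 0.0182), and 1 of the calls was lost without control replicate 1, without control replicate 2 or without salinity replicate 2, and both when only the 4 groups were fitted. The pair lay 1.80 above salinity (SE 0.29, limma adjusted p = 1.25e-06). That gap spans the 2 differences from control that ranked the gene, so nothing further is read from it.

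Against acidity the leading reversals were larger. They were ranked by their differences from control, so the p-values of those differences add no support. GLYMA_04G052000 stood at 28.2 and 28.4 FPKM in control and at 58.1, 49.8 and 50.6 under acidity, and fell to 3.57, 3.71 and 3.79 under the pair. Salinity alone had lowered it to 8.22, 10.1 and 10.3 FPKM, so under the pair it lay below both. Its group mean was also low under salinity with low phosphate (5.54 FPKM), acidity with water deficit (5.52) and acidity with low phosphate (5.42). It was 17.0 FPKM under salinity with water deficit and 24.2 under acidity with water deficit and low phosphate. Its difference from control was 0.87 for acidity (SE 0.10, limma adjusted p = 5.63e-09) and -2.64 for the pair (SE 0.10, limma adjusted p = 1.68e-25). GLYMA_02G215700 went the other way, from 12.5 and 16.6 FPKM in control to 3.84, 5.92 and 5.23 under acidity and 248, 200 and 235 under the pair, with 36.6, 31.0 and 29.0 under salinity. Its difference from control was -1.38 for acidity (SE 0.15, limma adjusted p = 1.59e-09) and 3.88 for the pair (SE 0.15, limma adjusted p = 3.63e-25). Acidity thus lowered this gene by itself, and the plants that had salinity and acidity exceeded those with salinity by 2.79 (SE 0.13, limma adjusted p = 1.29e-21). The group mean of GLYMA_02G215700 was 121 FPKM under salinity with water deficit and 115 under water deficit with low phosphate. In the 5-stress combination it was 336 FPKM, above the pair at 228. With low phosphate it was 25.0 FPKM on top of the pair and 4.79 on top of acidity.

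**Figure D3:**
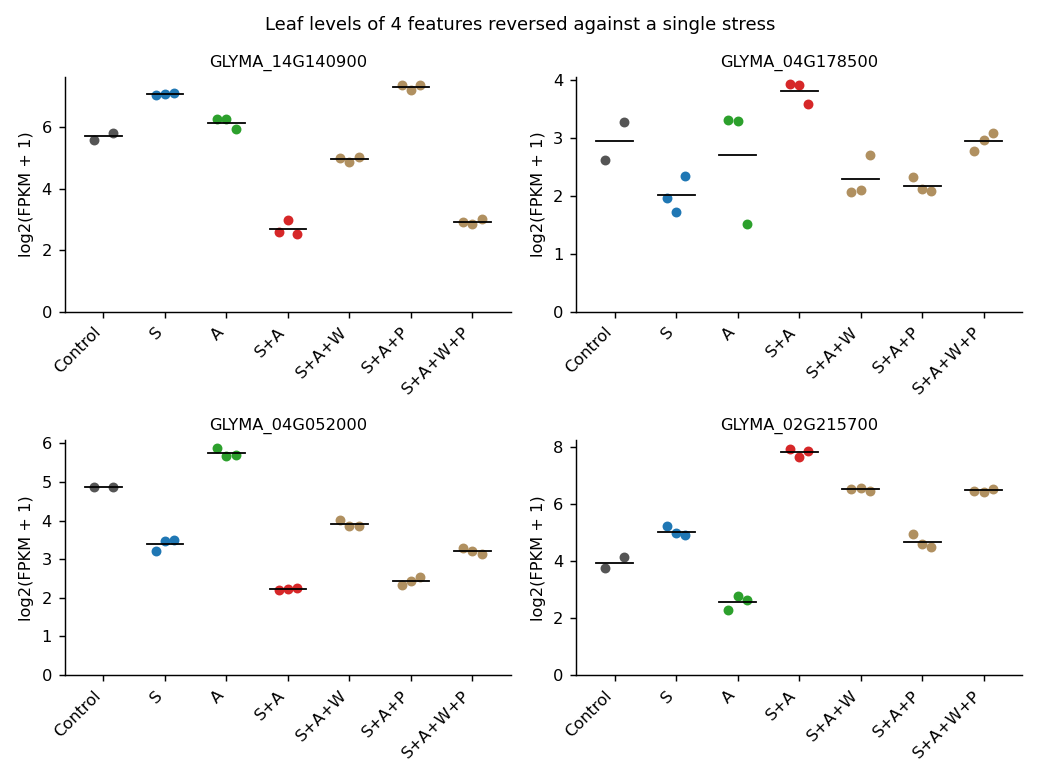
Level of 4 genes that reversed against a single stress, on the y axis in log2(FPKM + 1), in each leaf library of control, salinity (S), acidity (A), the pair (S+A) and the pair with water deficit (W), low phosphate (P) or both. Points are libraries and lines are group means. GLYMA_14G140900 is raised by S and lowered by S+A, GLYMA_04G052000 is raised by A and lowered by S+A, GLYMA_02G215700 is lowered by A and raised by S+A, and GLYMA_04G178500 shows the widest spread among acidity libraries.

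The same step, from either part to the pair, was then taken in plants that also had water deficit, low phosphate or both. These libraries are separate from the 11 above, so they give the comparison a second time on another background. Water deficit meant watering to 30% of the water available for transpiration, and low phosphate alone is labelled as a reduction by 90%. As with the control above, a gene counted only if it was also called in the same direction against the further stress alone. On that rule, 254 genes under water deficit were higher and 234 lower than under both parts (0.886% and 0.816% of those tested). Under low phosphate there were 492 and 1844 (1.72% and 6.43%). Under water deficit with low phosphate there were 2687 and 732 (9.37% and 2.55%). None of these came near the 9109 and 6156 found without a further stress. The directions again leaned on scaling, which gave 407 higher and 206 lower genes under water deficit, 961 and 937 under low phosphate and 2293 and 1644 under both. At least 2-fold beyond both parts were 7 higher and 3 lower genes under water deficit, 57 and 28 under low phosphate, and 164 and 2 under both.

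**Figure D4:**
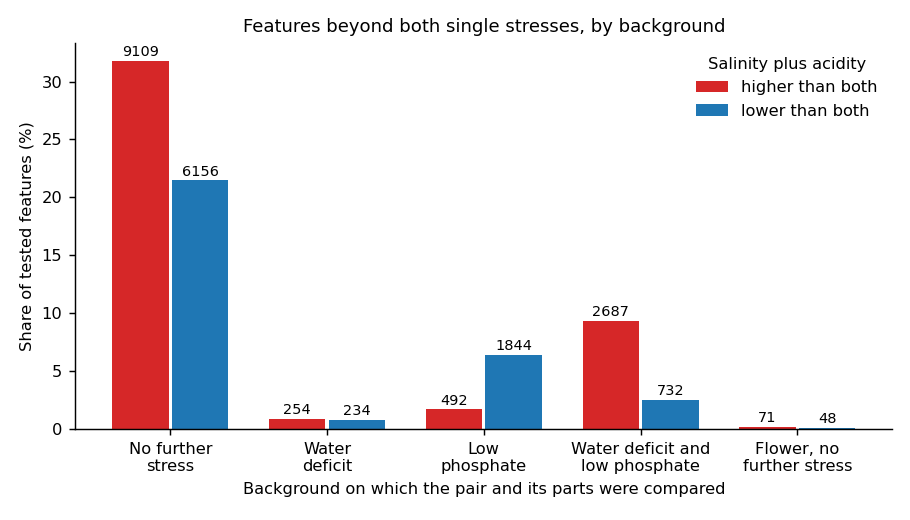
Share of tested features, in percent on the y axis, higher (red) or lower (blue) under the pair, for each background on the x axis. The pair, salinity plus acidity, was set against both of its parts and against the background alone (control without a further stress). Counts are above the bars. The bars without a further stress in leaf reach 31.8% and 21.5%, and the flower bars hold 71 and 48 features.

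The lists were compared between backgrounds gene by gene. Of all tested genes, 31.8% were in the list of 9109 higher genes and 21.5% in the list of 6156 lower genes. With both water deficit and low phosphate, 2563 of the 2687 higher genes (95.4%) were also in the list of 9109, of which they made up 28.1%, and 2 were in the list of lower genes. Of the 732 lower genes on that background, 693 (94.7%) were in the list of 6156, or 11.3% of that list, and 1 was in the list of higher genes. Under water deficit 221 of the 254 higher genes (87.0%, and 2.43% of the 9109) and 171 of the 234 lower genes (73.1%, and 2.78% of the 6156) were shared, while 2 and 7 were in the list of the other direction. Under low phosphate the shared genes were 244 of 492 (49.6%, and 2.68%) and 1199 of 1844 (65.0%, and 19.5%). There, 92 of the 492 higher genes (18.7%) were in the list of lower genes and 43 of the 1844 lower genes (2.33%) were in the list of higher genes. As deposited, the shared higher genes were thus most numerous with both extra stresses and the shared lower genes with low phosphate. Scaling gave 937 lower genes under low phosphate and 1644 with both extra stresses, so the order of these lists by size turned. The overlaps after scaling were not computed.

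The 2751 raised genes were then followed on the other backgrounds. With both extra stresses, 1848 (67.2%) were higher than under salinity and 1 was lower, where 11.6% of all tested genes were higher. Against acidity 2644 (96.1%) were higher and 2 were lower, where 41.1% of all tested genes were higher. Their median difference was 0.43 from salinity and 0.97 from acidity, smaller than without those stresses. The comparison with acidity leaned on scaling, which moved its median over all tested genes from 0.22 to 0. Its 11787 higher and 2142 lower genes became 5290 and 5413. All shares in this paragraph come from the deposited values, and the shares of the lists after scaling were not computed. Under water deficit 697 (25.3%) were higher and 42 lower than under salinity, where 4.96% and 2.8% of all tested genes were. On the same background 376 (13.7%) were higher and 63 lower than under acidity, where 4.57% and 13.4% of all tested genes were. Under low phosphate 184 (6.69%) were higher than under salinity and 275 (10.0%) were lower, where 4.71% and 16.7% of all tested genes were. Against acidity on that background 1362 (49.5%) were higher and 76 lower, where 11.5% and 24.2% of all tested genes were. Of the 979 lowered genes, 781 (79.8%) were lower than under salinity when both extra stresses were present, where 12.6% of all tested genes were, and 468 (47.8%) were lower than under acidity, where 7.47% were. Under water deficit 161 (16.4%) were lower and 23 higher than under salinity, and 459 (46.9%) lower and 32 higher than under acidity. Under low phosphate 356 (36.4%) were lower and 112 (11.4%) higher than under salinity, and 573 (58.5%) lower and 84 (8.58%) higher than under acidity. The shares of all tested genes for these comparisons are those given above for the raised genes.

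Departures from additivity had the same sign on another background for some genes and the opposite sign for others. Of the 9707 genes that lay above the sum without a further stress, 3716 (38.3%) lay below it under water deficit and 924 (9.52%) above it. Under low phosphate 3262 (33.6%) lay below the sum and 1483 (15.3%) above it. With both extra stresses 29 lay below it and 2594 (26.7%) above it. Of the 5168 genes that lay below the sum, 1655 (32.0%) were below it and 1270 (24.6%) above it under water deficit, 2194 (42.5%) and 1221 (23.6%) under low phosphate, and 1527 (29.5%) and 74 (1.43%) with both. Among all tested genes the shares above the sum were 15.2%, 16.8% and 10.9% in that order, and those below it were 28.3%, 32.7% and 6.44%. Among the 2751 raised genes, 2025 (73.6%) were below the sum under water deficit and 1597 (58.1%) under low phosphate, and with both, 1412 (51.3%) were above it. These splits shifted with scaling, which put 5820 of all tested genes above and 6661 below the sum under water deficit and 6137 above and 7747 below it under low phosphate, where the deposited values gave 4350 and 8123, and 4819 and 9366.

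The levels of the lists across all 18 leaf treatments give the same picture in FPKM. In the 2751 raised genes, the median level in a library was 2.48 to 2.57 FPKM under water deficit alone, 6.98 to 7.11 with salinity, 7.57 to 7.82 with acidity and 8.25 to 8.48 with both. On that background the list stood higher with either part than with water deficit alone, and little higher with both parts than with acidity. Under low phosphate alone it was 2.46 to 2.61 FPKM, with 6.55 to 6.63 after salinity was added, 4.69 to 4.99 after acidity and 6.42 to 6.64 after both. Without a further stress it was 3.43 to 3.55 FPKM in control, 5.09 to 5.36 under salinity, 3.33 to 3.50 under acidity and 17.9 to 18.3 under the pair. Next came the 5-stress combination with 11.2 to 11.3 FPKM and the 4-stress combination with 10.6 to 10.7. Cadmium alone stood at 5.82 to 6.12 FPKM. The lowered genes mirrored this in part, with 4.55 to 5.17 FPKM under the pair, against 16.2 to 17.1 in control, 10.0 to 10.3 with water deficit added and 11.7 to 12.6 with low phosphate added. For these genes the 5-stress combination, at 4.11 to 4.24 FPKM, lay below the pair. The members were chosen on the pair, its parts and the control, so the levels of those groups are a description only.

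**Figure D5:**
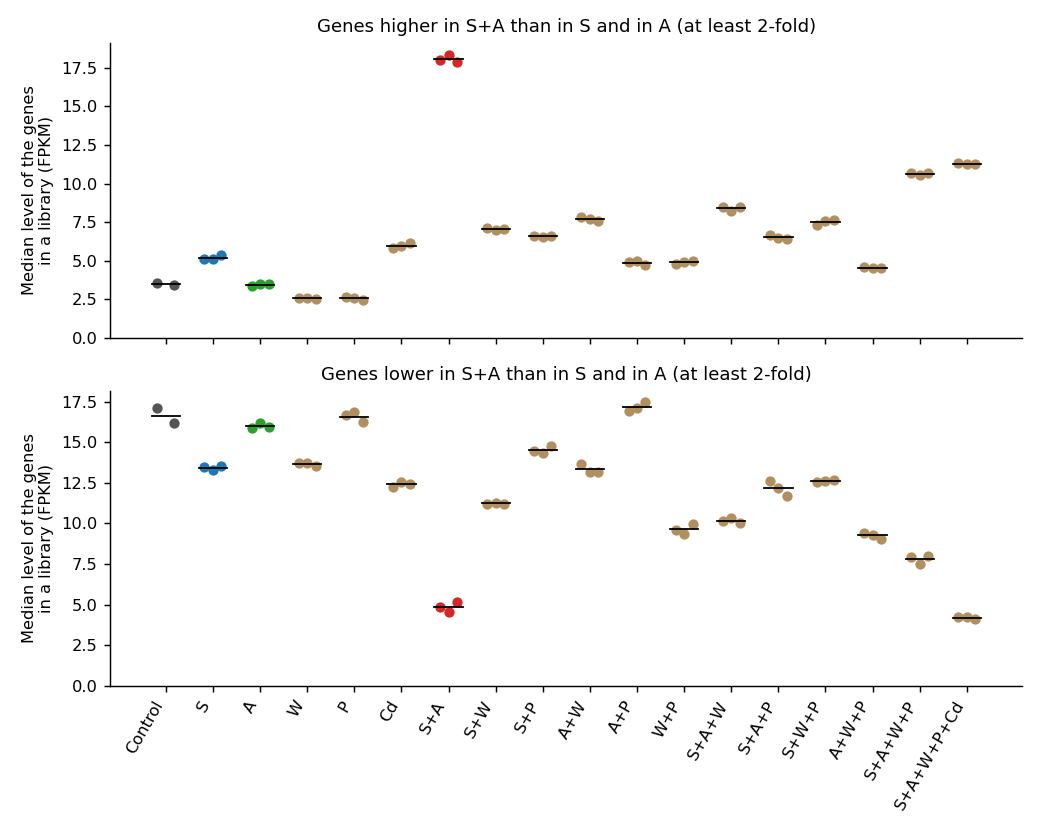
Median level in FPKM, on the y axis, of the 2751 genes raised (top) and the 979 genes lowered (bottom) at least 2-fold beyond both parts, in each of the 53 leaf libraries, grouped by treatment on the x axis (S salinity, A acidity, W water deficit, P low phosphate, Cd cadmium). Points are libraries and lines are group means. Raised genes stand at 17.9 to 18.3 FPKM under S+A and no other treatment exceeds 11.3, while lowered genes stand lower under the 5-stress combination than under S+A.

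A further stress added to the pair was also tested directly. Water deficit changed 15476 genes (54%), 5294 higher and 10182 lower than under the pair. Low phosphate changed 18525 (64.6%), 6138 higher and 12387 lower. Both together changed 12617 (44%), 4593 higher and 8024 lower. After scaling to the median ratio the directions were nearly even, with 6977 higher and 7462 lower for water deficit, 8080 and 9066 for low phosphate and 5808 and 6053 for both.

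In flowers the step from the parts to the pair was far smaller. The flower libraries were 3 of the pair, 3 of salinity, 3 of control and 2 of acidity, since 1 acidity column was an average of the others. Of 33792 tested features, 1760 (5.21%) differed from salinity, 836 higher and 924 lower, and 377 (1.12%) from acidity, 220 higher and 157 lower. Beyond both parts and control were 71 higher and 48 lower features (0.21% and 0.142%), and 10 and 8 of them were 2-fold. These counts were small and unstable. Without acidity replicate 2 or replicate 3, the total beyond both parts was 44 or 49, and the count against acidity was 121 or 137. Without salinity replicate 1 or 3, or replicate 2 or 3 of the pair, the count against salinity was 941, 1113, 1131 or 1054. Of the 2751 genes raised in leaf, 2321 were tested in flower, where 142 were higher and 18 lower than under salinity, against 2.47% and 2.73% of all tested flower features. In the same test against acidity 23 were higher and 11 lower, against 0.651% and 0.465%. Against the flower control 603 of them were higher and 31 lower, where 6.68% and 3.6% of all tested flower features were. Of the 979 genes lowered in leaf, 918 were tested in flower. There, 99 were lower and 34 higher than under salinity, 9 lower and 16 higher than under acidity, and 133 lower and 25 higher than in control.

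The difference between the organs was tested in 1 model over both, for 27337 features tested in each. The step from salinity to the pair differed in 13769 features (50.4%), the step from acidity in 15279 (55.9%) and the departure from the sum in 10135 (37.1%). The leaf effect was the larger in size for 94.9%, 97.4% and 93.7% of them. GLYMA_07G243700 stood at 3.61, 3.62 and 3.32 FPKM in flowers of the pair and at 3.92, 3.85 and 2.90 in control flowers, and its flower difference from salinity was 0.62 (SE 0.45, limma adjusted p = 0.511). Levels were normalised within an organ and are not compared between organs.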

How the data were processed

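Leaf and flower tables of FPKM values, 57147 features each, were used as the authors deposited them, and the values of a feature are already scaled by transcript length and library size. HISAT2 2.2.1 is named per the submitters' processing notes. The counting tool, genome build and annotation are not given in the sources used here. Total reads per library are unknown, so no counting interval or floor is given. In 4 of 108 columns the values were the mean of the group's other columns (leaf control replicate 3 and replicate 1 of flower acidity, water deficit and the 4-stress combination). They were left out, which left 53 leaf and 51 flower libraries.

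Groups came from sample titles. limma 3.58.1 in R 4.3.3 was fitted to log2(FPKM + 1) over all 18 groups of an organ, with empirical Bayes moderation (trend and robust), two-sided tests and Benjamini-Hochberg adjustment over all features whose mean in that organ was 1 FPKM or more. The fit was tested on simulated data. Nothing in the labels says whether repeats were grown separately, so p-values cover the spread between these pools. Differences were also computed with other pseudocounts, filters, scaling, groups and libraries, and with a replicate block. The fits that leave out features at 0 in one library and at 10 FPKM or more in another of the same group, the tests between backgrounds and the tests between organs were added after seeing the data.

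None of the IDs (0 of 57147) matched the 59048 genes of the RefSeq table for Glycine_max_v4.0, so the planned lists of stress, transport and hormone genes and the marker lists were not tested and no roles or sequences are given. The rule for named genes, without names, took the 2 largest rises and 2 largest falls, ranked by the smaller difference from the single stresses, with a mean of at least 10 FPKM in the higher groups and no overlap of libraries. The first gene of each reversed list was chosen after its values were seen, by the ranking planned for named genes. The members and lists were chosen with earlier results of these data known. Tables were made with pandas 2.3.3 and numpy 2.4.6 under Python 3.11.15, and plots with matplotlib 3.10.9.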

Additional observations from a re-analysis of the deposited data

Results flagged for a closer look

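The excess of the pair over its parts differed between backgrounds, by tests of the difference itself in the leaf fit. The excess over salinity without a further stress differed from that under water deficit in 13983 genes (48.8% of 28678 tested). It differed from that under low phosphate in 16306 (56.9%) and from that under both in 11294 (39.4%). The excess over acidity differed in 16784, 16886 and 12905 genes in the same order. These 6 contrasts share the libraries of the pair and its parts. Leaf and flower also differed, in 13769 features for the pair against salinity, in 15279 for the pair against acidity and in 10135 for the departure from the sum.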

How the results depend on the processing

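With the smaller or larger constant added before the logarithm, the 979 lowered genes became 1871 (0.1) or 260 (5), and the 2751 raised genes became 3371 (0.1) or 1465 (5). With a leaf mean of at least 5 FPKM, 16201 genes were left to test. Of these, 6064 were higher and 3971 lower than both parts and control, and 1683 were raised 2-fold. The pair differed from control in 12410, from salinity in 12051 and from acidity in 12707. With only the 4 groups fitted, reversals were 583 against salinity and 172 against acidity, and acidity alone changed 1538 genes. With the averaged columns counted as libraries, acidity alone changed 5249 genes, reversals against acidity were 930, and in flower 251 features lay beyond both parts and 970 differed from acidity. An averaged column adds no pool to its group, so those last counts hold no added replication. Why the other settings moved the counts was not tested. Leaving out 1 library at a time gave 175 to 553 reversals against acidity, 495 to 1003 against salinity, and 1665 (without control replicate 1) to 3636 genes for acidity alone. In flower it gave 44 to 116 features beyond both parts, 121 to 375 against acidity and 941 to 1736 against salinity. The counts of the 2751 and 979 genes ran from 2702 to 2788 and from 916 to 1057. The named genes kept the sign of their differences under the alternatives run. Scaling by median ratio turned the balance of higher and lower genes for salinity against control and for the genes beyond both parts under low phosphate. It also moved the split of the reversals, with the values given beside those results. For the pair against acidity under water deficit, 1312 higher and 3843 lower genes became 2688 and 2338. With both extra stresses, 11787 and 2142 against acidity became 5290 and 5413, and 3319 and 3602 against salinity became 3596 and 3435. No pairing by replicate number was seen among the leaf libraries of the pair and its parts. Deviations of same-numbered libraries correlated by -0.15 to 0.08 and those of other numbers by -0.14 to 0.17. Whether repeats were grown or harvested together cannot be read from these values. With the replicate block 9046 and 6148 genes lay beyond both parts, 2749 and 979 of them 2-fold, and no count moved by over 1.5 times. Unknown depth limits what can be said of genes listed at or near 0.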

Other observations

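Genes of the raised list lay side by side in ID number more often than tested genes at large lay beside a member. Of 2737 raised genes with a numbered ID, 505 (18.5%) had a neighbour in number that was also in the list, against 10.1% of all 28271 such tested genes. The longest run of neighbouring members held 6 genes, and 14 runs held 4 or more. Among the 978 lowered genes 63 (6.44%) had such a neighbour, against 3.67%. Whether neighbouring IDs have like sequences was not tested. By the chromosome written in the ID, raised genes made up from 6.71% of the tested genes of chromosome 12 to 13.0% of those of chromosome 16, and lowered genes from 2.53% on chromosome 20 to 4.74% on chromosome 15. Of the 520 tested features that were listed at 0 in 1 library and at 10 FPKM or more in another library of the same group, 10 were in the raised list and 0 in the lowered list.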
